A study of Mus musculus with 15 samples.

Results

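The cytosolic ribosomal protein genes of the embryonic mouse heart were examined as a set. A gene belonged to the set if its symbol was Rpl or Rps followed by a number and at most 1 of the letters a, l, x or y, or if it was Rplp0, Rplp1, Rplp2 or Rpsa. This gave 80 of the 16809 genes in the joined count table, 31 of the small and 49 of the large ribosomal subunit. The single-cell data came from Drop-seq, in which a droplet joins a cell with a barcoded bead that captures polyadenylated RNA, run on whole hearts at E14.5 on the C57BL6/N background. The 7 wild-type (WT) and 8 homozygous Adamts19 knockout (KO) libraries were compared to ask how loss of Adamts19, a secreted protease, affects the cells of the developing heart and its valves. The allele tm4a was carried by KO replicate 1 (litter 5) and KO replicates 2 to 4 (litter 6), and the allele tm4b by KO replicates 5 to 8 (litter 7). The WT litters were 1 (replicates 1 and 2), 2 (replicates 3 and 4), 3 (replicate 5) and 4 (replicates 6 and 7). No litter held both genotypes or both alleles, so allele and litter cannot be told apart. WT replicate 5 was run on the flow cell of all KO libraries, unlike the remaining 6 WT libraries. The part of Adamts19 that each allele removes, any other change the alleles carry and the number of embryos per library were not given in the sources used here.

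Each ribosome is built from a small subunit, which reads the mRNA, and a large subunit, which joins the amino acids. Most proteins of both subunits are made in equal number from separate genes scattered over the genome, and surplus copies are degraded. Their transcripts are short and among the most abundant of growing cells, and start with a C followed by a run of pyrimidines, the 5′ terminal oligopyrimidine (TOP) tract through which mTOR signalling sets their translation. Most of these genes have processed pseudogenes, near copies of the spliced transcript, so reads of a member can be shared with a copy. A few have paralogs of restricted expression, among them Rpl3l of striated muscle, Rpl10l and Rpl39l of the testis and Rps27l, a target of p53.

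The starts of 6 members are shown because the members' changes between the 2 KO alleles, described further on, went in opposite directions: Rps18 and Rpl35 were lower with tm4b, Rpl24 and Rpl12 were higher, Rps21 was higher relative to the rest of the set, and Rpl38 varied most among WT libraries. Each line gives the 60 bases before and the 20 from the transcript start as RefSeq places it (GRCm38.p6), 5′ to 3′ on the transcribed strand, with the pyrimidine tract that begins at the start in capitals. The windows are chr17:33955646-33955725, minus strand (Rps18), chr2:39005112-39005191, minus strand (Rpl35), chr11:114668520-114668599, plus strand (Rpl38), chr2:180257319-180257398, plus strand (Rps21), chr16:55966215-55966294, plus strand (Rpl24), and chr2:32961652-32961731, plus strand (Rpl12).
Rps18: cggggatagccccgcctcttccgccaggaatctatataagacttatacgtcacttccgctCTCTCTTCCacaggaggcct
Rpl35: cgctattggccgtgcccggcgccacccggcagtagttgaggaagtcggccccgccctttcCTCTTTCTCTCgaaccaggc
Rpl38: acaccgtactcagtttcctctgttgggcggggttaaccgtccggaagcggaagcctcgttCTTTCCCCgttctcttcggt
Rps21: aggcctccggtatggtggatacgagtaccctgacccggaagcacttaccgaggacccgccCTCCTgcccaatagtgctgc
Rpl24: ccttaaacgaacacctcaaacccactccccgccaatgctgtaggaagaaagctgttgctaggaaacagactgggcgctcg
Rpl12: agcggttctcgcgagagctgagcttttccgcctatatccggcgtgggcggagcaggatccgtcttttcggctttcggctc

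The tract was 9, 11, 8 and 5 bases long in Rps18, Rpl35, Rpl38 and Rps21, and none began at the start in Rpl24 and Rpl12. A tract was searched as a C with at least 4 further C or T bases, on the transcribed strand only. Of the 60 members with a promoter window in the RefSeq table, 12 (20%) had one exactly at the start, against 2.49% of all 27025 windows of the same length. Adding tracts that began elsewhere within 5 bases of the start, after an A or G, gave 22 members (36.7%) against 13.5% of all windows. With any base before the tract, a search added after seeing the data, these were 27 members (45%) and 18.5%. Rpl12 was then counted, with a tract of 6 bases that begins 2 bases after the start and follows a T. The annotated start of a gene can lie some bases from the one used in the heart, so a window without a tract shows only that these letters are not there.

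After filtering, 50771 cells were kept, with 5367748 to 11198676 UMIs (counted RNA molecules) and 2553 to 4521 cells per library and a median of 1328 to 2089 UMIs per cell. Members accounted for 326901 to 692273 UMIs per library. Adamts19 itself lay between 15.8 and 49.9 CPM (a gene's UMIs scaled to a common library total) in WT and between 5.28 and 8.60 CPM in KO libraries, without overlap. These tags come from the end of the transcript, so they check the labels only through the amount of that end. The reporter LacZ had 0 UMIs in every WT library and 5.40 to 91.6 CPM in KO libraries. Levels are CPM of a library's own total and were not divided by length, because 1 UMI stands for 1 captured transcript end. A library's sum cannot tell fewer cells of a type from less RNA per cell.

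In WT hearts, 29 members stood above 1000 CPM, 25 between 100 and 1000 and 26 below 100, of which 9 were under 20. The 10 highest members supplied 40.9% of the set's UMIs. The median level was 742 CPM for small-subunit and 231 CPM for large-subunit members, the latter including the low paralogs Rpl3l, Rpl10l and Rpl39l. The highest were Rps14, a protein of the small subunit's platform, at 2702, 3214 and 4139 CPM (lowest, median and highest of 7 WT libraries), and Rplp1, a protein of the stalk that recruits translation factors, at 2232, 3259 and 4105 CPM. Rpl32 followed at 2498, 2653 and 3700.5 CPM. These 3 ranges overlapped, so the order at the top was not fixed by the data.

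**Figure D1:**
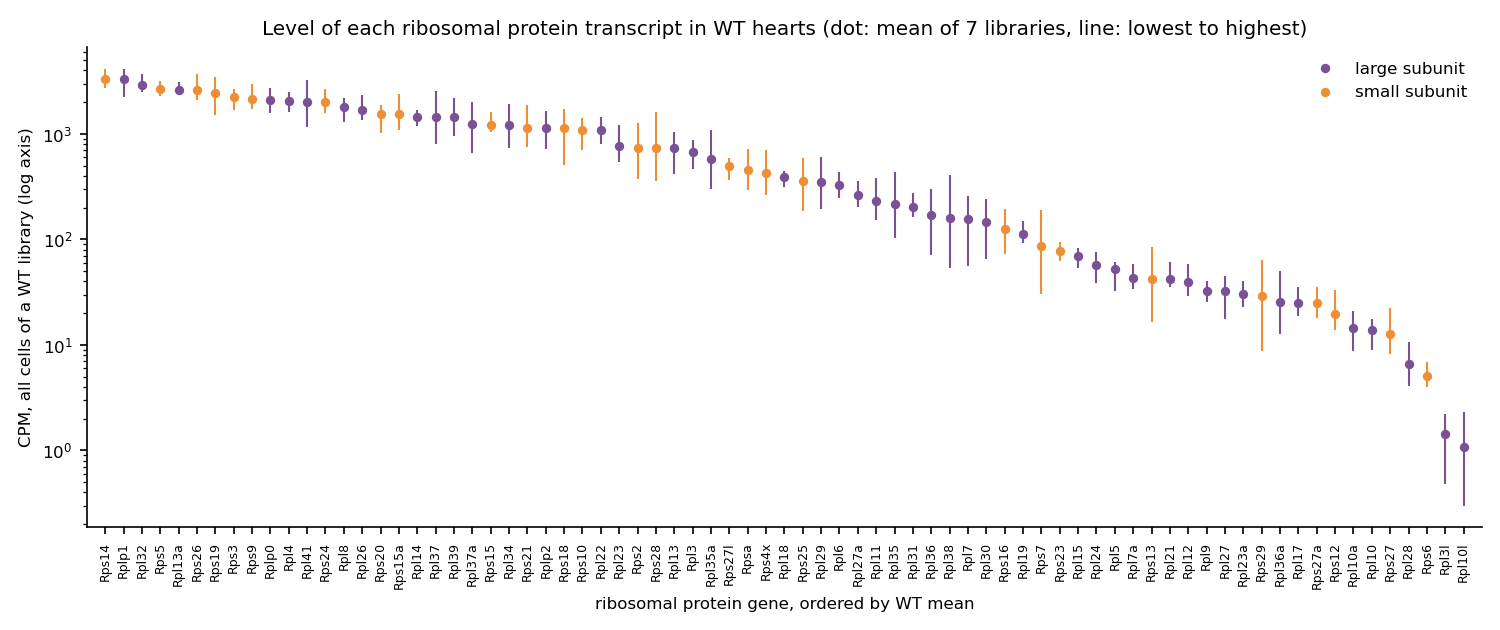
Level of each member in the 7 WT libraries in CPM on a log axis, ordered by the mean. The dot is the mean and the line runs from the lowest to the highest library, small-subunit members in orange and large-subunit members in purple. Rps14 and Rplp1 lead, 26 members lie below 100 CPM, and lines of several members span more than the step to their neighbours, widest for Rpl38. Rpl39l, with a mean of 0.446 CPM, is not drawn, nor are members not reported here, and a lowest value of 0 is drawn at the foot of the line.

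The restricted paralogs Rpl39l, Rpl10l and Rpl3l had the 3 lowest levels of the set. Rpl3l lay at 0.479, 1.46 and 2.23 CPM in WT (lowest, median, highest) against 467, 650 and 879 CPM for its parent Rpl3, without overlap. In cells named cardiomyocyte-like Rpl3l had a median over 15 libraries of 2.08 CPM, against 0.311 CPM in all other cells. Rpl10l lay at 0, 1.07 and 2.29 CPM against 8.91, 14.6 and 17.5 CPM for Rpl10, whose 3′ end is shared in full with other genes. Rpl39l lay at 0, 0.357 and 1.15 CPM against 950, 1233 and 2198 CPM for Rpl39. Rps4x, the X-linked small-subunit gene, lay at 263, 415 and 699 CPM, and its paralog Rps4l was not analysed here. Rps27l had the opposite relation to its parent. It lay at 368, 513 and 594 CPM in WT against 8.13, 11.3 and 22.1 CPM for Rps27. All of the 3′ end of Rps27 (100%) also occurs in transcripts of other genes, so its level is uncertain.

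The low members were in part those whose 3′ ends are not unique. For 47 members at least 50% of the 50-base words in the last 300 bases also occurred in transcripts of other annotated genes, and their median WT level was 205 CPM. The other 33 had a median of 1146 CPM. Across the 80 genes Spearman's rho between level and this share was -0.39, a description over genes that also differ in length and base composition. The counting of reads shared between copies was not given in the sources used here. Levels of these 47 are therefore uncertain. Rps18 (73.3% shared), Rpl35 (96.0%), Rpl36 (89.2%) and Rpl24 (81.3%) belong to them, while Rpl12 (0%) and Rps27l (11.0%) do not.

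Members spread widely between WT libraries. Over the 71 members of at least 20 CPM the median SD of log2 CPM was 0.35, against 0.26 over all 6995 genes at that level. Rpl38, a large-subunit protein known for its role in the translation of Hox mRNAs, varied most, from 53.3 CPM in WT replicate 7 to 411 CPM in WT replicate 4. Rps29 ran from 8.69 to 63.7 CPM and Rpl35, a protein at the exit of the peptide tunnel, from 104 to 432 CPM between the same 2 libraries. Of the 10 members with the widest spread, 7 were highest in WT replicate 4 and 7 were lowest in WT replicate 7. WT replicate 4 also held the most haemoglobin UMIs (5.78%, against 0.185% to 1.69% in the other 6 WT libraries) and the fewest cardiomyocyte-like cells (33.6% of cells against 38.8% to 47.2%). Whether these values bear on the members' spread was not tested. WT replicates 1 and 2, of 1 litter and 1 flow cell, also differed, with 274 and 107 CPM of Rpl35.

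Together the members made up 5.93%, 5.33%, 5.76%, 6.14%, 6.16%, 8.55% and 7.18% of UMIs in WT replicates 1 to 7. In the tm4a libraries the share was 7.32%, 6.57%, 7.14% and 6.09%, and in the tm4b libraries 6.38%, 6.30%, 6.00% and 6.01%. WT replicates 6 and 7 were high, and the 3 groups overlapped. The means were 6.44% ± 1.09 in WT (SD, n = 7) and 6.48% ± 0.508 in KO (SD, n = 8), and within KO 6.78% ± 0.562 with tm4a and 6.17% ± 0.195 with tm4b (n = 4 each). WT replicate 5, the only WT library on the flow cell of the KO libraries, lay within their range at 6.16%. Small-subunit members supplied 47.6% ± 0.992 of the set's UMIs in WT and 48.7% ± 0.445 in KO, again with overlap.

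The share of UMIs from ribosomal protein genes differed between cell classes within each library. Clusters were built without any member among the clustering genes, and classes were named from marker lists. Fibroblast-like cells had the highest median share over 15 libraries, 8.75% of UMIs, followed by vascular endothelial-like (8.01%), epicardial-like (7.69%), macrophage-like (7.57%), valve interstitial-like (6.95%), mural-like (6.94%), valve endothelial-like (6.90%) and endocardial-like cells (6.63%). Cardiomyocyte-like cells had 5.20%. Of these 21607 cells, 4652 formed a cluster led by cell cycle genes such as Hmmr, Rrm2 and Cenpf, with a share of 5.35%. In that cluster 4 of 16 cardiomyocyte markers were over 2-fold above other cells, and 0 were among its 10 leading genes. Fibroblast-like cells lay above the other cells of their own library in 15 of 15 libraries, by 0.53 log2 in the median, and cardiomyocyte-like cells below in 15 of 15, by 0.53. The fibroblast-like share exceeded the vascular endothelial-like one in 14 of 15 libraries and the epicardial-like one in 13. The middle of the order was less fixed: valve interstitial-like cells were above endocardial-like cells in 9 of 15 libraries and above valve endothelial-like cells in 4.

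Among the 6 cardiomyocyte-like clusters the share ran from 4.60% in the cluster led by Gtsf1, Cited1, Nppb and Nppa to 6.50% in one led by Myl2, Pln and Myl3, all below the 6.93% of the lowest of 3 fibroblast-like clusters. The 6.50% cluster was shallow, at 0.396 of its libraries' median UMIs per cell, and lay above an endocardial-like cluster at 6.39%. The highest cluster of all was fibroblast-like, led by Lsp1, Aspn, Spon2 and Tcf21, with 9.64%. Mitochondrially encoded transcripts took a median of 3.39% of UMIs in cardiomyocyte-like cells and 1.48% to 2.31% in the other 8 classes with 14 or 15 libraries. Without mitochondrially encoded and haemoglobin UMIs the cardiomyocyte-like share was 5.38% and the fibroblast-like one 9.04%. Erythroid-like cells, present in sufficient number in 4 libraries only, had a median share of 2.42%, or 6.36% without those UMIs.

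The balance between the subunits also differed between classes, though not in the order of the share. Small-subunit members supplied a smaller part of the set's UMIs in cardiomyocyte-like cells than in the other cells of the library in 15 of 15 libraries, by 2.33 percentage points in the median. Their part was larger in valve interstitial-like, fibroblast-like, vascular endothelial-like, valve endothelial-like and epicardial-like cells in 15 of 15 libraries, by 1.10 to 2.00 points. It was larger in endocardial-like cells in 14 of 15, macrophage-like cells in 11 of 15 and mural-like cells in 9 of 14 libraries. The median part was 49.1% in fibroblast-like and 50.3% in epicardial-like cells. Cardiomyocyte-like cells, the largest class, are among the other cells of each class, so these differences are not independent of theirs.

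**Figure D2:**
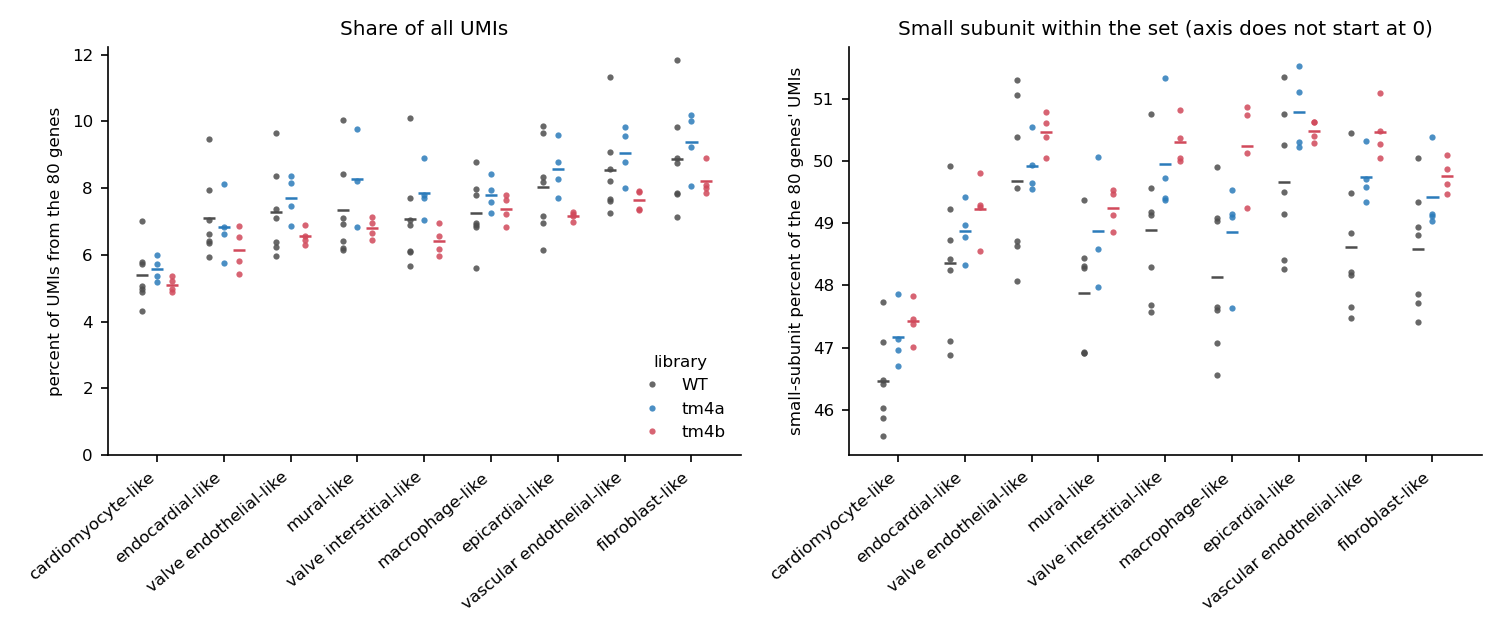
Left, percent of all UMIs that came from the 80 genes in each of 9 cell classes (erythroid-like cells are not drawn), 1 point per library, with the group mean as a bar, for WT, tm4a and tm4b libraries. Right, small-subunit percent of the set's UMIs in the same cells, on an axis that does not start at 0. Cardiomyocyte-like cells have the lowest median of the 9 in both panels (median share 5.20%), and fibroblast-like cells have the highest share (8.75%).

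The proportions of members within the set were compared between classes. A member was taken to leave the set's trend where its part of the set's UMIs differed by at least 0.5 log2 from that in the other cells, with the same sign in every library used, at a mean of at least 20 CPM over all cells of WT libraries. This held for 4 members in cardiomyocyte-like cells, 2 in fibroblast-like cells, 1 each in endocardial-like, vascular endothelial-like and epicardial-like cells, and 5 in erythroid-like cells. In cardiomyocyte-like cells Rps29 was over-represented by 0.97 log2 in the median (0.24 to 1.35 over 15 libraries) and Rps27l by 0.82 (0.63 to 0.92). Rpl5, which with Rpl11 and 5S rRNA binds Mdm2, was over-represented by 0.61 (0.31 to 0.87). Rpl24, a protein at the bridge between the subunits, was under-represented there by -0.69 (-1.26 to -0.18). In level, Rpl24 had a median of 30.9 CPM in cardiomyocyte-like and 84.0 CPM in other cells. Rpl5 differed little in level, with 57.6 and 54.8 CPM, while Rps27l had 567 and 463 CPM and Rps29 21.3 and 16.0 CPM.

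Rps27l was under-represented in fibroblast-like (-0.58), endocardial-like (-0.53) and epicardial-like cells (-0.70), and Rps29 in fibroblast-like cells (-0.69). A member frequent in cardiomyocyte-like cells, the largest class, is lowered in the comparison of each other class, so these values are not independent of the former. In level Rps27l had medians of 511, 362 and 356 CPM in these classes, against 514, 522 and 515 CPM in their other cells. Rpl15 was under-represented in vascular endothelial-like cells, by -0.91 (-1.33 to -0.14). In erythroid-like cells Rpl41, Rps2, Rpsa and Rplp0 were over-represented in 4 of 4 libraries, with medians of 0.83, 0.83, 0.73 and 0.56. These libraries hold only 94 such cells. In level the median of each was lower there than in other cells: 1288 against 2307, 578 against 733, 245 against 385 and 1137 against 2087 CPM. Rps18 was close to the set in all classes named, between -0.07 and 0.12.

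Between KO and WT no member passed the test over all cells. The edgeR quasi-likelihood test with Benjamini-Hochberg adjustment called 28 of 13445 genes (0.208%) and 0 of the 78 members tested, and DESeq2 also called 0 members. An unadjusted p under 0.05 was found for 8 of 78 members, all lower in KO, and for 15.9% of all genes. DESeq2 gave 10 of 80 such members, 6 of them lower, and 13.7% of all genes. Without TMM factors edgeR gave 14 of 78, of which 7 were lower, and 14.4% of all genes. The median log2 fold change of the members was -0.06, with 29 above 0 and 49 below, against -0.02 over all genes. It was -0.07 for small-subunit and -0.05 for large-subunit members. For no member were the 8 KO libraries entirely above or below the 7 WT libraries, a pattern shown by 0.298% and 0.141% of all genes.

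Rpl36, Rpl35, Rps7 and Rpl41 were among the members farthest below the set's median. Rpl36 lay at 70.5, 148 and 300 CPM in WT and at 44.1, 77.8 and 135 CPM in KO libraries (lowest, median, highest). Its fold change was -1.04 log2 (SE 0.32, edgeR adjusted p = 0.129), and the groups overlapped. Rpl35 (-0.77), Rps7 (-0.70) and Rpl41 (-0.66) also overlapped between the genotypes. Rps7 turned to 0.21 with the flow cell as a covariate, where WT replicate 5 alone stands for WT, and to 0.13 without WT replicates 1 to 4.

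Farthest above were Rpl39 (0.38), Rpl12 (0.33), Rps21 (0.33), Rps26 (0.30) and Rps10 (0.23), all with overlapping libraries and edgeR adjusted p of at least 0.315. Rpl39, which lines the peptide tunnel, lay at 950, 1233 and 2198 CPM in WT and at 1354, 2020 and 2286.5 CPM in KO libraries. Rps18 lay at 502, 1344 and 1715 CPM in WT and at 618, 904 and 1224 CPM in KO libraries (-0.36, SE 0.26), and did not pass the test.

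The direction of the set's median rested on few WT libraries. Without WT replicates 6 and 7, the 2 with the highest share, it was 0.08, and without WT replicate 6 alone 0.01. With the flow cell as a covariate it was 0.06, and with counts summed per litter 0.07. The covariate fit compares the KO libraries with WT replicate 5 alone, the only WT library on their flow cell. Without WT replicates 1 to 4 it was -0.22, and edgeR then called 418 of 13829 genes lower in KO (3.02%), among them Rpl13 (-0.73, SE 0.16) and Rps2 (-0.69, SE 0.16). Relative to the set's own UMI total instead of all genes, 0 of 78 members and 3 of 13534 genes (0.0222%) passed, with 16 members and 7.57% of all genes at an unadjusted p under 0.05.

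In 4 classes tested separately no member passed between KO and WT either. Of all genes edgeR called 1.35% in cardiomyocyte-like, 0.393% in valve interstitial-like, 0.137% in fibroblast-like and 0.187% in endocardial-like cells. An unadjusted p under 0.05 was found for 9 of 77, 10 of 71, 10 of 76 and 11 of 75 members, and for 16.8%, 13.6%, 14.2% and 12.4% of all genes. The members' medians were -0.07, -0.08, -0.05 and -0.17, against -0.03, -0.03, -0.03 and -0.01 over all genes. DESeq2 called Rpl36 in valve interstitial-like cells (-1.12). Without WT replicate 3 the edgeR test called Rpl36 in valve interstitial-like (-1.22) and endocardial-like cells (-1.20). Without WT replicates 1 to 4 it called 7 members lower in cardiomyocyte-like cells (3.5% of all genes were called lower), 4 in valve interstitial-like cells (2.3%), 4 in fibroblast-like cells (1.45%) and 10 in endocardial-like cells (2.76%). Without WT replicates 6 and 7 it called 2 members higher in cardiomyocyte-like cells (0.305% of all genes were called higher), Rpl11 (0.68) and Rpsa (0.51). Rpl13 and Rps2 were among the lower ones in each of the 4 classes, and Rpl29, Rpl32, Rps9, Rps14, Rps18 and Rps19 in 1 class or more. The 4 classes share libraries, so these calls are not independent of each other.

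Between the KO alleles the set differed. With tm4b 28 of the 78 members tested were lower over all cells (7.41% of all 13531 genes were called lower) and 2 were higher (7.9% of all genes were called higher) by edgeR at an adjusted p under 0.05. The members' median log2 fold change of tm4b over tm4a was -0.34, against 0.01 over all genes. The fall covered both subunits: 13 of 31 small-subunit and 15 of 47 large-subunit members fell, with medians of -0.36 and -0.33. These values are scaled by TMM factors, which set the bulk of genes to no change. Without them the median of all genes was 0.13 and that of the members -0.22, 20 members fell and 4 rose, and the split of all genes moved from 1069 higher and 1002 lower to 1969 higher (14.6%) and 492 lower (3.64%). With 4 libraries per allele and all tm4b libraries from 1 litter, the test measures the spread between these libraries.

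Rps18, a protein of the head of the small subunit, had the lowest adjusted p of the set. It lay at 1081, 1160, 1224 and 1105 CPM in tm4a replicates 1 to 4 and at 634, 618, 700 and 727 CPM in tm4b replicates 5 to 8. The groups were far apart, and both lay inside the WT range of 502 to 1715 CPM. The means were 1143 ± 63.9 and 670 ± 52.0 CPM (SD, n = 4), and the fold change was -0.88 log2 (SE 0.08, edgeR adjusted p = 0.000732).

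Rpl35 had a similar fold change with more spread. It lay at 220, 173, 175 and 124 CPM with tm4a and at 111, 66.6, 92.5 and 92.1 CPM with tm4b. The lowest tm4a library stayed just above the highest tm4b library. The fold change was -1.05 log2 (SE 0.18, edgeR adjusted p = 0.0056).

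Rpl29, a large-subunit protein that also binds heparin, lay at 429, 438, 400 and 348 CPM with tm4a and at 258, 249, 278 and 274 CPM with tm4b, a fall of -0.72 (SE 0.09, edgeR adjusted p = 0.00192) without overlap. Rps19, known for its mutations in Diamond-Blackfan anaemia, lay at 2461, 2548, 2733 and 2514 CPM with tm4a and at 1759, 1922, 1893 and 1922 CPM with tm4b. It fell by -0.56 (SE 0.08, edgeR adjusted p = 0.00209), also without overlap. Rpl36 fell by -0.98 (SE 0.18) and Rpl35a, another gene of Diamond-Blackfan anaemia, by -0.77 (SE 0.15), each with the tm4b libraries below all tm4a libraries.

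Other falls lost the call when 1 library was left out. Rps7 had the most negative fold change (-1.14, SE 0.35, edgeR adjusted p = 0.0455), with 122, 79.5, 49.7 and 34.8 CPM in tm4a and 54.2, 28.5, 27.3 and 32.5 CPM in tm4b libraries. These overlapped, and without KO replicate 1, 2, 6, 7 or 8 the call was lost, with -0.71 as the value without replicate 1. Rpl41, the shortest protein of the ribosome, lay at 2171, 1627, 1884 and 1046 CPM with tm4a and at 1238, 769, 840 and 908 CPM with tm4b (-0.95, SE 0.21, edgeR adjusted p = 0.014). KO replicate 4 lay within the tm4b range, and the call was lost without KO replicate 7 (-0.88). Rps28 (-0.81), Rps4x (-0.76) and Rps29 (-0.75) overlapped between the alleles and lost the call without KO replicate 1, among others, with values of -0.64, -0.56 and -0.53 without it.

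Across the fits that leave out 1 library the number of members lower with tm4b ran from 8 without KO replicate 7 (when 1.87% of all genes were called lower) to 39 without KO replicate 4 (7.4%). It was 18 without KO replicate 1 (4.56%), 18 without KO replicate 6 (4.38%) and 12 without KO replicate 8 (2.92%). The 8 members lower in every such fit included Rps18, Rps19, Rpl29, Rpl35, Rpl35a, Rpl36 and Rpl37a. Not overlapping between the alleles were 18 members below (5.44% of all genes) and 5 above (17.6% of all genes), the latter Rpl12, Rpl24, Rpl39, Rps20 and Rps21.

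Rpl24 and Rpl12 went against the set. Rpl24, for which the Belly spot and tail mouse mutant is known, lay at 47.5, 48.7, 44.4 and 45.3 CPM with tm4a and at 64.6, 68.6, 70.9 and 81.7 CPM with tm4b. The groups did not overlap, and the rise was 0.50 log2 (SE 0.09, edgeR adjusted p = 0.0063), held in every fit without 1 library. Rpl12, which with Rplp0 forms the base of the stalk, lay at 47.4, 38.0, 43.3 and 38.4 CPM with tm4a and at 55.5, 66.3, 55.4 and 63.5 CPM with tm4b. It rose by 0.41 (SE 0.11, edgeR adjusted p = 0.0272) without overlap, and lost the call without KO replicate 2, 3, 6 or 8 (0.35 without replicate 2). Rpl39 (0.27, edgeR adjusted p = 0.124), Rps21 (0.26) and Rpl13 (0.15) came next above the set's median and did not pass. Farthest below it, beside Rps7, Rpl35, Rpl36 and Rpl41, was Rps13 (-0.95, SE 0.36, edgeR adjusted p = 0.0984), which did not pass.

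**Figure D3:**
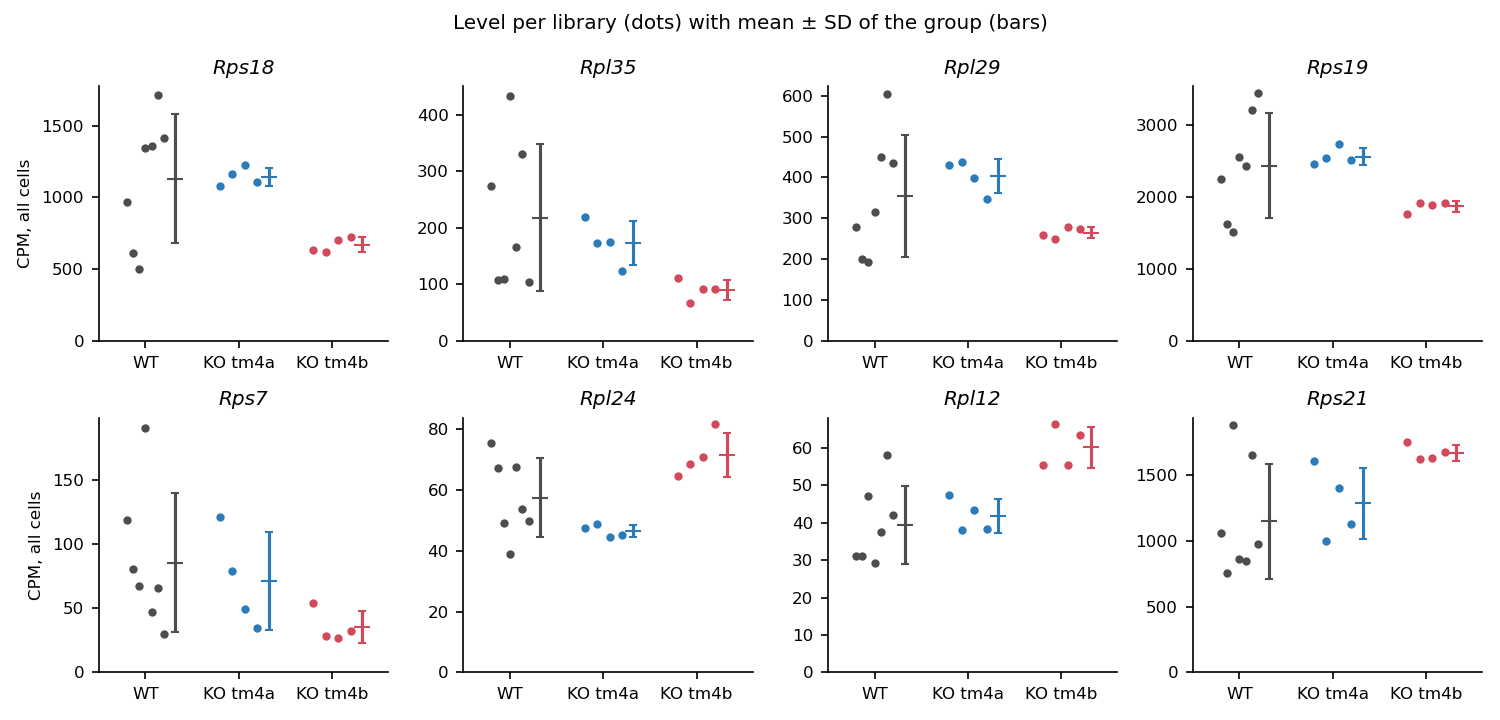
Level in CPM of 8 members in every library (points), with mean ± SD of the group as a bar, for 7 WT, 4 tm4a and 4 tm4b libraries, each axis from 0. Rps18, Rpl35, Rpl29 and Rps19 are lower in all tm4b than in all tm4a libraries, Rpl24, Rpl12 and Rps21 are higher in all of them, and Rps7 overlaps. For Rps18 the WT libraries span 502 to 1715 CPM, more than either allele group.

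**Figure D4:**
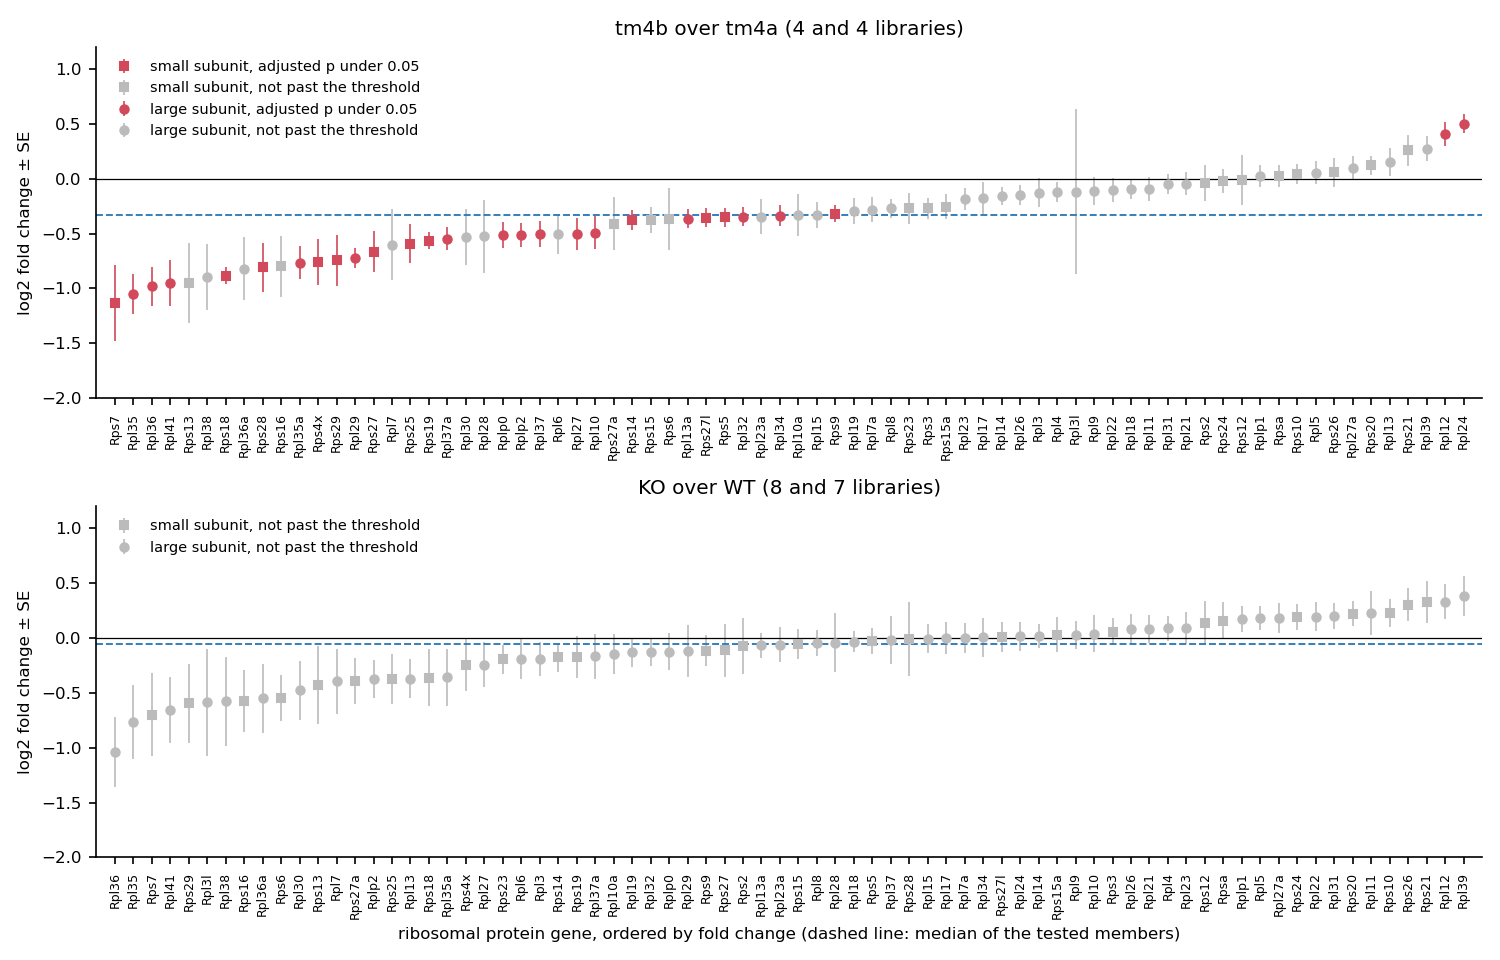
Log2 fold change ± SE of tested members, tm4b over tm4a above and KO over WT below, each ordered by its own values, with the median of all 78 tested as a dashed line (-0.34 and -0.06). Squares are small-subunit and circles large-subunit members, and red marks an edgeR adjusted p under 0.05, reached in the test by 30 members for tm4b over tm4a and by 0 for KO over WT. Members not reported here are left out of the plot.

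In cardiomyocyte-like cells alone, 29 of 76 members were lower with tm4b (6.25% of all genes) and 1, Rpl24, was higher (6.25%), with a median of -0.31 against 0.01 over all 11240 genes. The 2 lists shared 24 members, 85.7% of the 28 and 82.8% of the 29. Called in cardiomyocyte-like cells but not over all cells were Rpl38, Rpl6, Rpl8, Rps15 and Rps16, of which Rpl6, Rpl8 and Rps15 were named after their values were seen. Rps18 fell there by -0.83 (SE 0.07, edgeR adjusted p = 4.68e-05) and Rpl24 rose by 0.51 (SE 0.11, edgeR adjusted p = 0.00892). Cardiomyocyte-like cells made up 46.2% ± 4.86 of cells in tm4a and 40.7% ± 4.83 in tm4b libraries (SD, n = 4, overlapping). The median UMI count per cell was 1498 ± 263 and 1581 ± 35.6, and mitochondrially encoded UMIs took 2.87% ± 0.335 and 2.46% ± 0.229. The part of these differences in the set's fall was not tested. Cardiomyocyte-like cells are part of the sums over all cells, so their median is not independent of the one over all cells.

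Rps18 was lower in every tm4b than in every tm4a library in each of 9 classes. Its mean went from 931 ± 47.0 to 563 ± 40.5 CPM in cardiomyocyte-like cells, from 1329 ± 98.1 to 633 ± 36.7 CPM in valve interstitial-like cells and from 1618 ± 166 to 883 ± 72.5 CPM in fibroblast-like cells. Across the 9 classes its fold in plain CPM ran from -0.70 log2 in macrophage-like to -1.07 in valve interstitial-like cells. Rpl35 did not overlap in 6 of 9 classes, Rps27l in 6, Rpl36 in 5, Rpl24 in 4, and Rpl12 and Rpl41 in 3 each, while Rps7 and Rps29 overlapped in all 9. Over all cells 5.44% of all genes lay below without overlap and 17.6% above, and shares of all genes within classes are not given here. The classes come from the same 8 KO libraries (3 tm4a and 4 tm4b for mural-like cells), so they do not repeat the result independently. The set's share of UMIs was lower in every tm4b library in 3 classes. It was 7.87% ± 0.777 with tm4a and 6.41% ± 0.441 with tm4b in valve interstitial-like cells, 9.05% ± 0.821 and 7.63% ± 0.302 in vascular endothelial-like cells, and 8.58% ± 0.811 and 7.17% ± 0.140 in epicardial-like cells.

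Members were also compared between the alleles relative to the set's own UMI total, which removes its common fall. On this scale members that fall more than the set put others above it, so movement both ways is built in. Of 78 members, 13 were higher with tm4b (22.2% of all genes were called higher) and 11 lower (0.882% of all genes were called lower). Of the 13, only Rpl12 and Rpl24 were also called higher in the test against all genes, while all 11 were called lower there. The members below the set included Rpl35 (-0.79), Rpl36 (-0.72), Rpl41 (-0.69), Rps18 (-0.64, SE 0.10, edgeR adjusted p = 0.00253), Rpl35a, Rpl29, Rps19, Rplp2 and Rplp0. Rps18, Rpl29, Rpl35, Rpl35a and Rpl36 stayed so in each of the 8 fits without 1 library. Above it were, among others, Rpl24 (0.75, SE 0.12, edgeR adjusted p = 0.0023), Rpl12 (0.66), Rpl39 (0.53), Rps21 (0.52), Rps20 (0.37), Rpl27a (0.35), Rps26, Rpl5, Rps10, Rpsa, Rplp1 and Rps24. The first 6 of these stayed so in each of the 8 fits. All 3 proteins of the stalk were among the members that left the set's trend, Rplp1 above it (0.27) and Rplp0 and Rplp2 below (-0.27 each). These 3 calls were not firm. Those of Rplp0 and Rplp2 were lost without KO replicate 1, 2, 3, 6, 7 or 8 and when the 5 most abundant members were left out of the total (-0.24 and -0.25), and that of Rplp1 was lost without KO replicate 6 or 7.

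The fall of the members went with their length. Members are short, with a median transcript length of 772.5 bases against 2511 over 15853 genes, and in the allele comparison the fold change rose with length over all genes (Spearman's rho 0.37 over 12844 genes, and 0.28 within the 78 members, both across genes). In the shortest of 5 equal length groups (56 to 1435 bases), which holds 72 of the members, the median fold change of all genes was -0.19 and that of the members -0.35. In that group 19.7% of all genes were called lower, against 28 of 72 members. In the longest group the median was 0.18 and 0.779% were called lower. After a smooth trend with length was removed within each library, 10 members were lower (5.15% of all genes) and 3 higher (3.1% of all genes), with a median of -0.18 against -0.04 over all genes. The 10, of which 9 were among the 28, included Rps15a, Rps18, Rps19, Rpl29, Rpl35, Rpl35a, Rpl36, Rpl37a and Rplp0, and the 3 higher were Rpl12, Rpl24 and Rpl39. Rps18 then fell by -0.71 and Rpl24 rose by 0.66. Rps15a, the 1 of the 10 not among the 28, was assigned 5130 bases, the median of its annotated transcripts. Its call with the trend removed rests on that length. What sets the dependence on length was not tested.

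**Figure D5:**
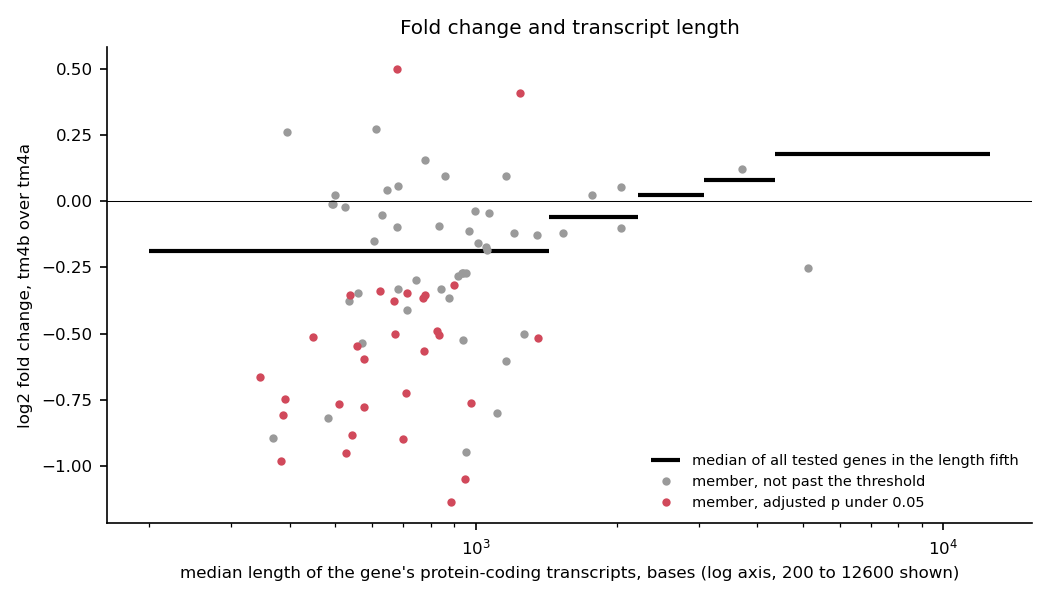
Log2 fold change of tm4b over tm4a against the median length of a gene's protein-coding transcripts, on a log axis of length. Points are tested members, red where the edgeR adjusted p was under 0.05, and black lines are the medians of all tested genes in each of 5 length groups, from -0.19 in the shortest to 0.18 in the longest. The longest group reaches beyond the axis, and most members lie below the line of the shortest group.

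The 28 members lower with tm4b had a median transcript length of 670 bases, against 896 in the 48 members not called. Their transcripts had a median GC content of 53.2% against 51.0%, and a median of 54.1% against 63.5% of the words at their 3′ end occurred elsewhere. A pyrimidine tract lay at the start in 4 of 20 lower members with a promoter window and in 8 of 36 not called, and in neither Rpl24 nor Rpl12.

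Other genes of the pathway were counted in lists between the alleles, where 7.41% of all genes were called lower and 7.9% higher, and 19.7% lower in the shortest length group. Among the 8 measured ribosomal proteins outside the symbol rule 2 fell, Rpl36al (-0.43) and Rpl22l1 (-0.42), and the median was -0.43. Of 75 mitochondrial ribosomal proteins, made in the cytosol for a separate ribosome, 41 fell and 0 rose, with a median of -0.35. The largest falls were those of Mrps21 (-0.96), Mrps33 (-0.66), Mrps11 (-0.57), Mrps28 (-0.57) and Mrpl22 (-0.51). Of 67 genes of rRNA synthesis and ribosome assembly 11 fell, led by Imp4 (-0.52) and Bop1 (-0.42), and 6 rose, led by Utp18 (0.71), Imp3 (0.63) and Gar1 (0.56), with a median of -0.09. Of 38 translation factors and other TOP transcripts 6 fell, led by Naca (-0.51), and 4 rose, led by Tpt1 (0.57), with a median of -0.20.

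Of 24 regulators of ribosomal protein transcription or of the nucleolar stress response, 5 rose, among them the transcription factors Yy1 (0.65) and Gabpa (0.43), and 2 fell, the p53 target Cdkn1a (-0.69) and the translation repressor Eif4ebp1 (-0.39). Rows named as pseudogenes of ribosomal proteins included 2 of 21 that fell, Rps18-ps3 (-1.02) and Rpl36-ps3 (-0.73), copies of members that fell themselves. Between KO and WT over all cells 0.208% of all genes were called. In these lists the only one was the assembly factor Tsr1 (0.60, SE 0.12, edgeR adjusted p = 0.0486), 1 of 67 assembly genes tested. Its level was 55.4 ± 10.2 CPM in WT and 85.9 ± 17.7 CPM in KO libraries. In cardiomyocyte-like cells, where 1.35% of all genes were called, 3 of 67 assembly genes were higher in KO, Tsr1 (0.62), Ddx21 (0.46) and Nolc1 (0.39). Of 38 translation factors and other TOP transcripts 2 were higher, Snhg5 (0.63) and Snhg1 (0.53). Of 15 pseudogene rows tested there 1 was lower, Rpl36-ps3 (-1.43).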

How the data were processed

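Drop-seq UMI counts per gene and cell of 15 E14.5 heart libraries were analysed as the authors deposited them. The build mm10 and the tools Seurat 2.1 and bcl2fastq 2.17 are named, per the submitters' processing notes. The aligner was not given in the sources used here. Members, gene lists and tests were chosen with earlier results of these data known. 0 columns belonged to no sample. The labels call the KO libraries biological replicates, the embryos per library are not given, and p-values measure the spread between libraries.

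Of 55152 barcodes, 50899 had at least 300 genes and at most 30% mitochondrially encoded UMIs. Scrublet called 128 of these (0.251%, and under 0.5% in 14 of 15 libraries, so the caller did not work), which left 50771 cells, and doublets remain. Between libraries 87 barcode sequences recurred, at most 9 in a pair of libraries. Cells were clustered (scanpy 1.11.5, leidenalg 0.10.2, 2000 variable genes without members, resolution 1.0), and classes were named from marker lists. A cluster of 2253 cells led by haemoglobin genes was left unnamed. Classes with at least 10 cells in a library were used, and shares within the set were taken with a pseudocount of 0.5 UMI.

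Counts summed per library were tested with edgeR 4.0.16 (R 4.3.3): filterByExpr, TMM factors, quasi-likelihood test, Benjamini-Hochberg adjustment over all genes tested, threshold 0.05. A second fit took the members' own UMI total as library size. The KO and WT fits used all 15 libraries and the allele fits the 8 KO libraries, without covariates. Counts were simulated with the same dispersion for every gene and no litter or flow cell effect. On these the KO and WT test (13420 genes) recovered 93 of 98 genes changed 2-fold and 35 of 95 changed 1.5-fold. The allele test (13495 genes) recovered 55 of 98 and 11 of 99. Members varied more between WT libraries than all genes did (median SD of log2 CPM 0.35 against 0.26), so these rates need not hold for members. Alternatives were DESeq2 1.42.0, no filter, no TMM factors, each library left out, flow cell, litter sums, a replicate block and the removal of further doublet scores. Further ones left out WT replicates 1 to 4 or 6 and 7 together, or removed a smooth trend (spline, 4 degrees of freedom) with transcript length or GC content. Annotation came from GENCODE M21 (GRCm38) and promoter windows from RefSeq.

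Genes were named by these rules: every member past the threshold in a comparison with at most 20 of them, otherwise the 10 largest in each direction; Rps18 and Rpl35; the 5 members farthest above and below the members' median in each comparison over all cells, from 20 CPM; the restricted paralogs and their parents; members at least 0.5 log2 from the other cells in a class; the 3 highest and 3 lowest in WT; and up to 5 genes per direction of each pathway list. Results for some genes that these rules name are not reported here, though the genes count in all totals.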

Additional observations from a re-analysis of the deposited data

Results flagged for a closer look

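Of 176 groups of 4 to 10 libraries examined, 8 (4.55%) held a library set apart from the others by more than Dixon's 95% critical value, and chance gives about 1 in 20. Rpl5 in WT replicate 4 lay at 32.4 CPM, below 51.5 to 61.4 CPM in the other WT libraries. The small-subunit share of the set was 49.3% in KO replicate 2, above 48.1% to 48.2% in the other tm4a libraries. Among tm4b libraries Rpl13 stood apart in KO replicate 8 (724 CPM, the others at 599 to 613 CPM) and Rpl39 in KO replicate 6 (2286.5 CPM, the others at 2130 to 2154 CPM). KO replicate 5 was the high library for 4 members: Rplp2 at 900.4 CPM (others 714 to 732 CPM), Rps13 at 37.3 CPM (others 17.8 to 18.7 CPM), Rps16 at 97.4 CPM (others 55.0 to 57.9 CPM) and Rps4x at 362 CPM (others 251 to 267 CPM).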

How the results depend on the processing

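The labels' replicate numbers did not pair the libraries: correlations of same-numbered libraries ran from -0.466 to 0.187, and no library correlated best with its own number. With a replicate block the KO and WT fit over all cells called 2 genes and 0 members, with a members' median of -0.02. Leaving out WT replicates 6 and 7 together and removing length or GC trends were alternatives chosen after seeing the data. Without WT replicates 1 to 4 the members called were 2 over all cells, 7 in cardiomyocyte-like, 4 in valve interstitial-like, 4 in fibroblast-like and 10 in endocardial-like cells, against 0 in each. Without WT replicates 6 and 7, 2 were called in cardiomyocyte-like cells, Rpl11 and Rpsa, both higher. DESeq2 called 1 in valve interstitial-like and 1 in endocardial-like cells, and no filter 1 and 2. Leaving out 1 library gave 0 to 1 over all cells and in cardiomyocyte-like cells, 0 to 2 in valve interstitial-like and endocardial-like cells and 0 in fibroblast-like cells. Rps7, KO vs WT all cells, turned to 0.21 with the flow cell as a covariate and to 0.13 without WT replicates 1 to 4, and Rps10, KO vs WT all cells, to -0.027 without those. With that covariate the KO libraries are compared with WT replicate 5 alone. The cause of these turns was not tested.

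Between the alleles over all cells, members lower with tm4b were 28, 10 with the length trend removed, and 8 to 39 with 1 library left out. Members higher were 2, 4 without TMM factors, and 1 to 3 with 1 library left out. In cardiomyocyte-like cells they were 29 lower and 1 higher, 19 and 5 without TMM factors, and 14 to 37 and 1 to 4 with 1 library left out. Relative to the set's total, leaving out 1 library gave 6 to 18 lower and 6 to 13 higher. The number of all genes called between KO and WT over all cells ran from 5 to 403 (28 with all libraries) with 1 library left out, and between the alleles from 747 to 2191 (2071 with all libraries).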
